A study of Mus musculus with 6 samples.

Results

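The respiratory chain genes described here encode the subunits of the 4 enzyme complexes of the inner mitochondrial membrane that pass electrons to oxygen. They were taken by gene symbol: names that begin Nduf followed by a, b, c, s or v and a digit for complex I, Sdha to Sdhd for complex II, names that begin Uqcr for complex III, and names that begin Cox4 to Cox8 for complex IV. The rule found 62 genes among the 19057 with a probe of 1 gene symbol, of which 35 belong to complex I, 4 to complex II, 7 to complex III and 16 to complex IV. Cox6a2, Cox7a1 and Cox8b, the muscle isoforms of complex IV, are given apart from the other 59. Ndufs5-ps, annotated as a pseudogene, was kept by the rule, and its probe may also read transcripts of Ndufs5, its protein-coding relative.

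RNA was compared between the libraries titled tooth germ (lower molar) and those titled oral tissue (the oral tissue of the lower jaw without tooth or bone) of mice of the outbred CD-1 stock, taken on embryonic day 13.5, when the molar is an epithelial bud in condensing mesenchyme. No genotype or treatment is named. Each of 3 litters gave 1 library of each tissue, pooled over several embryos that gave both tissues, so n = 3 per tissue, and each library was read on 1 Illumina bead array. The titles conflict with the source names and tissue fields, which call the libraries titled tooth germ non-tooth tissue and the other 3 tooth bud; libraries are named by title here, and every sign below turns if the other fields are right.

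As background, complex I (NADH dehydrogenase) and complex II (succinate dehydrogenase) feed electrons from fuels into the chain, complex III (the cytochrome bc1 complex) passes them to cytochrome c, and complex IV (cytochrome c oxidase) hands them to oxygen. Most subunits are encoded in the nucleus and made in nearly all cells, while a few core subunits are encoded in mitochondrial DNA. In complex IV some subunits exist in an ordinary form and in a form made mainly in heart and skeletal muscle, so that Cox6a2, Cox7a1 and Cox8b take the places held elsewhere by Cox6a1, Cox7a2 and Cox8a.

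The genes that check the labels were read first. Msx1, a homeobox gene of dental mesenchyme, read 12.67, 12.66 and 12.36 on the deposited log2 scale in titled tooth germ, against 10.78, 11.41 and 11.09 in titled oral tissue. Shh, the hedgehog ligand of dental epithelium, read 7.62, 7.90 and 8.18 in titled tooth germ, against 7.30, 7.01 and 7.04 in titled oral tissue. Both were higher in the libraries titled tooth germ, with no overlap between the groups. All 6 arrays held the same sorted values, as quantile normalization leaves them, with a median of 7.01 and an upper quartile of 7.84. The chosen probes of 50 of the 62 genes had a mean above that upper quartile and those of 4 lay below the median.

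The subunits of the respiratory chain differed little between the tissues, apart from muscle isoforms of complex IV. Cox6a2 and Cox8b were lower in the libraries titled tooth germ, and the other 60 genes were not called (limma, adjusted p under 0.05 over all genes). These 2 of 62 genes, both lower, compare with 5.81% of all genes called in either direction, 3.42% called lower and 2.39% called higher. The same 2 genes were called with litter as a fixed block, a fit that called 8.88% of all genes, and with litter as a random effect at an estimated correlation, which called 7.5%. Over the 59 genes other than muscle isoforms the median log2 difference, titled tooth germ minus titled oral tissue, was 0.0028, against 0.0026 over all genes, with 30 genes above 0 and 29 below. Their differences ran from -0.24 for Cox7a2 to 0.18 for Ndufs5-ps, and 57 of 59 were smaller than 0.2 in size. Most genes of the array differed as little, with 16749 of all 19057 smaller than 0.2.

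The precision of these estimates can be read from the intervals. The median standard error of the 59 differences was 0.074, and every one of their 95% intervals, each taken singly, lay within 0.5 log2 units of 0. Over all genes 17829 of 19057 intervals did so. Among the 59, the extreme bounds were as follows. The lowest bound was -0.47, for Cox7a2, which is 1.39-fold, and the highest was 0.42, for Ndufa10, which is 1.34-fold. An unadjusted p under 0.05 was found for 4 of the 62 genes (6.45%), Cox6a2, Cox8b, Cox8c and Cox7a2, against 17.1% of all genes. The groups did not overlap for 9 of the 62 genes (14.5%), against 23.1% of all genes. For the 4 genes whose probes lay below the median of all values (Sdha, Ndufs1, Cox7b2 and Cox8c) the narrow intervals describe a dim signal and not the transcript. Another 6 of the 59 lay between the median and the upper quartile, among them Uqcrfs1 (mean 7.02), Cox7b (7.66) and Uqcrq (7.69). Their small differences are to be read with the same care.

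**Figure D1:**
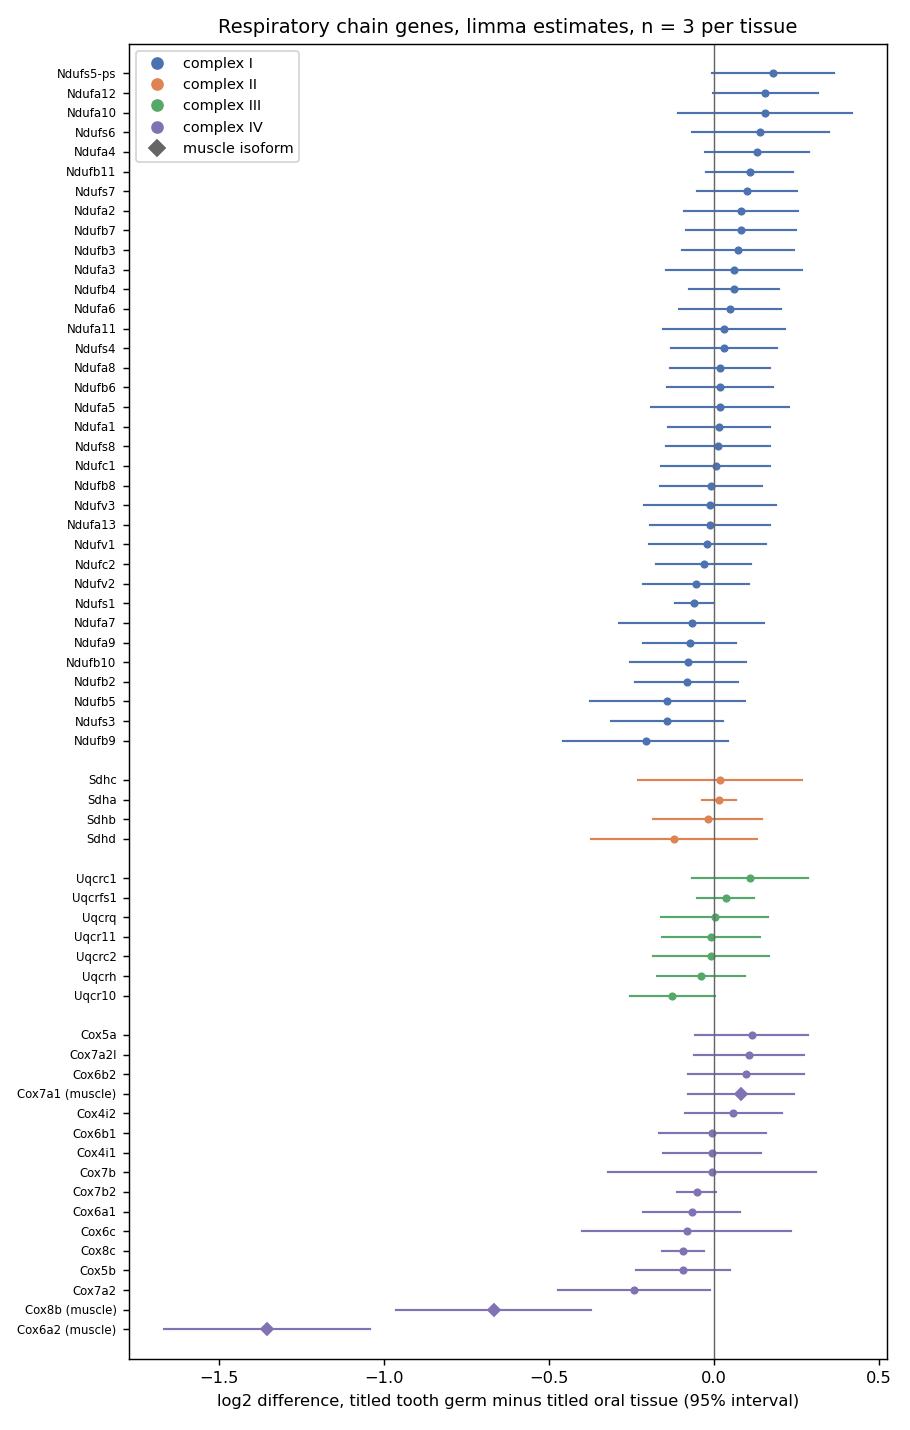
Log2 difference of each of the 62 respiratory chain genes, titled tooth germ minus titled oral tissue, with its 95% interval from limma (n = 3 per tissue), grouped and coloured by complex. Cox6a2 (-1.35) and Cox8b (-0.67), drawn as diamonds with Cox7a1, lie far to the left, and the other genes lie between -0.24 and 0.18.

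Complex I, the entry point for NADH, gave 35 genes, and none was called in either direction (limma without a block, 0 with an unadjusted p under 0.05). Their median log2 difference was 0.018. The highest was Ndufs5-ps, which read 10.34, 10.43 and 10.53 in titled tooth germ, against 10.17, 10.25 and 10.34 in titled oral tissue. The within-litter differences of this probe were 0.18, 0.18 and 0.19, yet the gene was not called (limma, adjusted p = 0.308, and 0.153 with litter as a fixed block). With that block Ndufs5-ps, Ndufa12, Ndufb9 and Ndufs6 had an unadjusted p under 0.05, and no gene of complex I was called. The highest protein-coding gene was Ndufa12, an accessory subunit, which read 11.65, 11.75 and 11.66 in titled tooth germ, against 11.47, 11.59 and 11.54 in titled oral tissue (difference 0.16, SE 0.073, adjusted p = 0.301). All 3 titled tooth germ libraries read above all 3 of titled oral tissue for Ndufa12, Ndufb11, Ndufs7 and Ndufs5-ps, and all 3 read below for Ndufa9. These 5 of 35 genes (14.3%) compare with 23.1% of all genes, so the separation carries no reading for the complex.

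The lowest of complex I was Ndufb9, an accessory subunit of the membrane arm, which read 8.56, 8.82 and 8.31 in titled tooth germ, against 8.80, 8.84 and 8.68 in titled oral tissue (difference -0.21, SE 0.11, adjusted p = 0.406). The groups overlapped, and library 3 of titled tooth germ was the lowest. By name family, the median difference was 0.030 over 13 Ndufa genes, 0.0049 over 10 Ndufb genes, -0.013 over both Ndufc genes, 0.030 over 7 Ndufs genes and -0.020 over 3 Ndufv genes. Among the core subunits, Ndufv1, which binds the NADH-oxidising flavin, differed by -0.020, the iron-sulphur subunits Ndufs8 and Ndufs7 by 0.012 and 0.099, and Ndufs3 by -0.14, and none of these was called. Ndufa13, whose probe was the brightest of the complex, differed by -0.013. Ndufs1, the largest iron-sulphur subunit, was read by a probe below the median of all values (6.78, 6.79 and 6.82 in titled tooth germ, against 6.88, 6.81 and 6.87 in titled oral tissue) and cannot be judged. Ndufa4, named for complex I and since placed in complex IV, read 12.57, 12.56 and 12.63 in titled tooth germ, against 12.42, 12.38 and 12.57 in titled oral tissue (difference 0.13, adjusted p = 0.396).

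Complex II, which also serves the citric acid cycle, gave 4 genes, and none was called (0 with an unadjusted p under 0.05, limma). Sdhb, its iron-sulphur subunit, read 10.50, 10.59 and 10.48 in titled tooth germ, against 10.56, 10.52 and 10.55 in titled oral tissue, a log2 difference of -0.019 with a 95% interval of -0.18 to 0.15. Sdhc, a membrane anchor, differed by 0.020 and was the highest of the 4. Sdhd, the other anchor, read 8.40, 8.49 and 7.99 in titled tooth germ, against 8.39, 8.48 and 8.37 in titled oral tissue. Its difference of -0.12 was the lowest of the complex, and libraries 1 and 2 differed by 0.010 and 0.010 within their litters while library 3 differed by -0.38. The probe of Sdha, the flavoprotein, lay below the median of all values in all 6 libraries, with a mean of 6.74 in titled tooth germ, against 6.72 in titled oral tissue.

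Complex III gave 7 genes, and none was called (0 with an unadjusted p under 0.05, limma without a block). Uqcr10, a small accessory subunit and the brightest probe of the complex, read 13.20, 13.28 and 13.32 in titled tooth germ, against 13.39, 13.40 and 13.40 in titled oral tissue. All 3 titled tooth germ libraries lay below, by a log2 difference of -0.13 (SE 0.059, adjusted p = 0.303), and a second probe of the gene differed by 0.029. With litter as a fixed block Uqcr10 had an unadjusted p of 0.0441 and was not called (limma, adjusted p = 0.226). Uqcrc1, a core subunit, was the highest of the complex at 0.11 (SE 0.080, adjusted p = 0.551), and its partner Uqcrc2 differed by -0.0098. Uqcrh, which bridges to cytochrome c1, differed by -0.039, Uqcr11 by -0.0094 and Uqcrq by 0.0028. The chosen probe of Uqcrfs1, the Rieske iron-sulphur protein, had the dimmest signal of the complex and differed by 0.036.

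Complex IV without its muscle isoforms gave 13 genes, none of them called, with a median difference of -0.0063. Cox4i1, the common form of subunit 4, read 13.22, 13.23 and 13.35 in titled tooth germ, against 13.32, 13.33 and 13.17 in titled oral tissue, a difference of -0.0052 (95% interval -0.15 to 0.14). Cox4i2, its lung-enriched and oxygen-responsive form, averaged 7.38 ± 0.037 in titled tooth germ, against 7.32 ± 0.13 in titled oral tissue (mean ± SD, n = 3 per tissue). Cox5a was the highest of the complex at 0.11 (adjusted p = 0.522) and Cox5b differed by -0.095. Cox6b1 and its testis form Cox6b2 differed by -0.0043 and 0.097, and Cox7b by -0.0063. Cox7b2, the dimmest of the complex, differed by -0.052 and Cox6c by -0.082. Cox7a2l, which helps join complexes into supercomplexes, differed by 0.11 (adjusted p = 0.544).

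Cox7a2, the ordinary form of subunit 7a, was the lowest of the 59. It read 8.83, 8.96 and 8.54 in titled tooth germ, against 8.94, 9.10 and 9.02 in titled oral tissue (log2 difference -0.24, SE 0.11, adjusted p = 0.259, unadjusted p = 0.0407). The groups overlapped by 1 library, and the difference was negative in all 3 litters. Without titled tooth germ library 3 it was -0.12 (adjusted p = 0.555). Cox8c, a testis form of subunit 8, was read below the median of all values at 6.72, 6.74 and 6.79 in titled tooth germ, against 6.81, 6.90 and 6.83 in titled oral tissue. Its difference of -0.094 was not called (adjusted p = 0.0971) and became a call with array weights (-0.10, adjusted p = 0.0455), at a signal where a change of transcript cannot be judged.

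The muscle isoforms of complex IV did not move together. Cox6a2, the muscle form of subunit 6a, read 8.27, 7.90 and 8.04 in titled tooth germ, against 9.59, 9.06 and 9.62 in titled oral tissue. The groups were far apart, with every titled tooth germ library below every titled oral tissue library. Cox6a2 was 2.56-fold higher in titled oral tissue (log2 difference -1.35, SE 0.14, adjusted p = 0.000137), and its differences within litters were -1.32, -1.16 and -1.58. Cox8b, the muscle form of subunit 8, read 7.37, 7.16 and 7.14 in titled tooth germ, against 8.24, 7.56 and 7.87 in titled oral tissue. These groups did not overlap either, and Cox8b was 1.59-fold higher in titled oral tissue (log2 difference -0.67, SE 0.13, adjusted p = 0.0119, and 0.000202 with litter as a block). The call of Cox8b was lost without titled tooth germ library 2 (adjusted p = 0.0508), without titled tooth germ library 3 (0.0652), without litter 3 (0.128), without a variance trend (0.0761) and with robust shrinkage (0.127).

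Cox7a1, the muscle form of subunit 7a, read 7.53, 7.45 and 7.71 in titled tooth germ, against 7.44, 7.55 and 7.45 in titled oral tissue. The groups overlapped, and the log2 difference was 0.081 with a 95% interval of -0.080 to 0.24 (adjusted p = 0.652). Its probe lay between the median and the upper quartile of all values. Cox6a1, the ordinary form of subunit 6a, read 12.62, 12.46 and 12.53 in titled tooth germ, against 12.62, 12.61 and 12.59 in titled oral tissue (difference -0.068, adjusted p = 0.689). Cox8a was not analysed here.

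The unequal change of these forms was also read as ratios within each array. A ratio of 2 probes does not compare the levels of 2 genes, but it can be set against the same ratio in the other tissue. The log2 ratio of Cox6a2 to Cox6a1 was -4.35, -4.56 and -4.49 in titled tooth germ, against -3.03, -3.54 and -2.97 in titled oral tissue. The ratio of Cox6a2 to Cox7a1 differed by -1.44 and that of Cox8b to Cox7a1 by -0.75 between the tissues. The groups did not overlap for any of the 3 ratios. Each gave p = 0.1 in a two-sided exact permutation test, also after adjustment over the 3 ratios, and 0.1 is the smallest p that 3 libraries against 3 allow. Cox6a2 and Cox8b had already been found with groups that did not overlap, and each was set against a gene that was not called. The ratios therefore add no separate support. The ratio of Cox7a1 to Cox7a2, the forms of subunit 7a, was not tested.

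**Figure D2:**
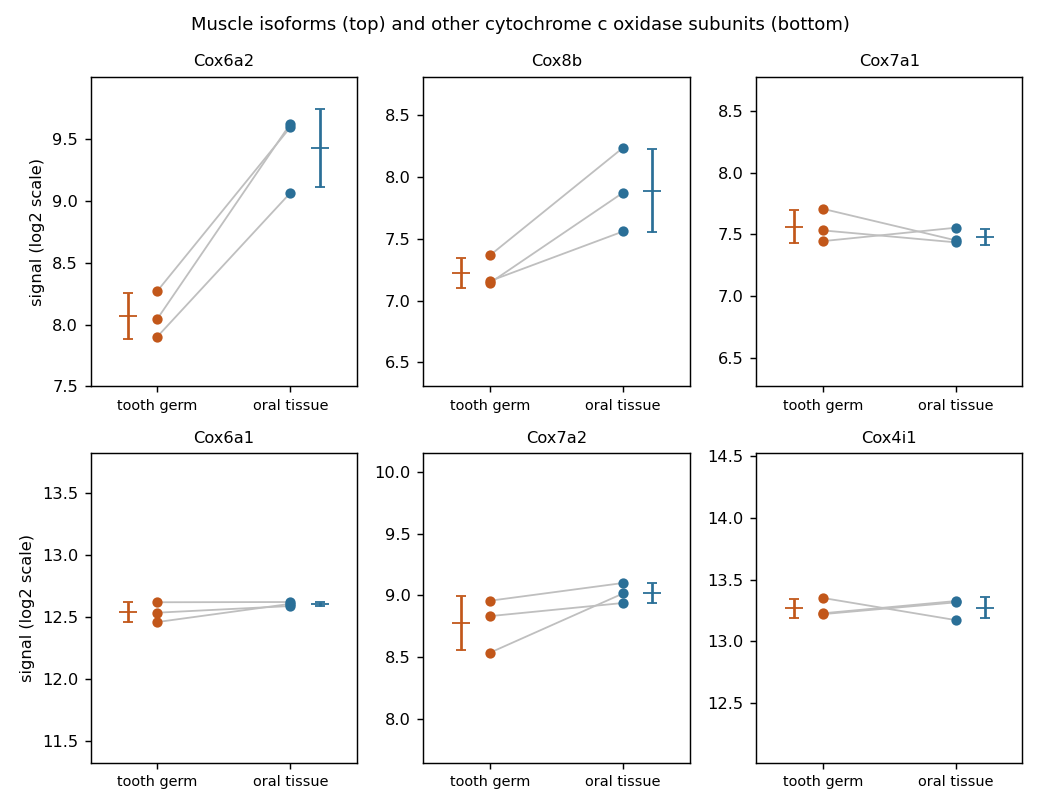
Signal of 6 complex IV genes on the deposited log2 scale in each library (points), with group mean and SD at the side (n = 3 per tissue) and lines joining libraries of a litter; every panel spans 2.5 log2 units. Cox6a2 and Cox8b lie lower in all 3 titled tooth germ libraries, while the lines of Cox7a1, Cox6a1, Cox7a2 and Cox4i1 are flatter, that of Cox7a2 in litter 3 (-0.48) being the steepest of these.

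Contractile and other muscle genes moved the same way as Cox6a2 and Cox8b. Of 24 skeletal muscle markers measured, 22 were lower in titled tooth germ (91.7%, against 3.42% of all genes) and 2, Myf5 and Neb, were not called, with a median log2 difference of -1.70. The mean signal over the list was 9.26, 9.01 and 9.13 in titled tooth germ, against 10.94, 10.36 and 10.75 in titled oral tissue. Myod1, a master regulator of muscle fate, read 7.46, 7.52 and 7.50 in titled tooth germ, against 9.13, 8.71 and 9.06 in titled oral tissue. Myog, which drives muscle differentiation, differed by -1.54 (-0.95 over the mean of its probes) and Acta1, the skeletal muscle actin, by -1.94. The lowest titled oral tissue value of the muscle list, of Cox6a2 and of Cox8b was in library 2 each time. The part of muscle cells in the differences of Cox6a2 and Cox8b was not tested, and in these bulk samples fewer cells of a type and less RNA per cell cannot be told apart.

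The proximal promoters of a muscle isoform that fell, of one that did not, and of an ordinary isoform are shown because these genes encode forms of the same enzyme and differ in this comparison. The window of Cox6a2 was not analysed here, so Cox8b stands alone for the muscle isoforms that fell. Each window holds 250 bases before and 50 after the annotated start, from RefSeq on GRCm38.p6, 5′ to 3′ on the strand of the gene. In Cox8b (chr7:140900397-140900696, minus strand) capitals mark CAGCTG, an E-box form preferred by myogenic factors, and TATAAA, the core sequence of TATA boxes. The same search found neither in the window of Cox7a1 (chr7:30183921-30184220, plus strand). In Cox6a1 (chr5:115348909-115349208, minus strand) capitals mark TGCGCA, contained in the site of NRF1, an activator of respiratory chain genes, and CCGGAAG, a site form of ETS factors, on its reverse strand.
Cox8b: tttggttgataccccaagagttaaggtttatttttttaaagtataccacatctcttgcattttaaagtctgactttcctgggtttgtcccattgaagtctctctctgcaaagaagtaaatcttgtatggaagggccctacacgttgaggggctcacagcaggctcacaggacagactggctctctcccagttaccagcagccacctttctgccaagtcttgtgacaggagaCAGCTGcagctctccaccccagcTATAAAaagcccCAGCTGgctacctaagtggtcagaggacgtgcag
Cox7a1: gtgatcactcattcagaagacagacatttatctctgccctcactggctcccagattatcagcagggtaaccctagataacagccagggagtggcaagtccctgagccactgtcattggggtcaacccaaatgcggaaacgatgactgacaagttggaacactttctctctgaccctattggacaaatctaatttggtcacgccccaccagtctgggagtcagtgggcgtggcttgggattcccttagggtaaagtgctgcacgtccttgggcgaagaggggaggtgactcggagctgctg
Cox6a1: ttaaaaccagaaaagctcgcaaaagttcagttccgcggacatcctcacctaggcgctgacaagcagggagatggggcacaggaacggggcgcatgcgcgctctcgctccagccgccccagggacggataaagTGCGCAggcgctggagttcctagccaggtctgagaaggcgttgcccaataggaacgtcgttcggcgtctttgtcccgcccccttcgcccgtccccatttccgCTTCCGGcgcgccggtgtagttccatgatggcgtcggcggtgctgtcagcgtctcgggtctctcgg

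The Cox8b window holds CAGCTG at 2 positions and TATAAA at 1. TATAAA and the later CAGCTG lie after the annotated start, so this TATAAA is not in the place of a TATA box of that start. CAGCTG was found on either strand in 4 of 52 promoter windows of 50 respiratory chain genes (Cox8b, Ndufa8, Ndufb10 and Ndufv2), or 7.69%, against 16.3% of all 32851 windows. TATAAA was found in 13.5% of the windows of these genes and in 13.6% of all windows. TGCGCA stood in 15 of the 52 windows (28.8%), against 7.76% of all windows, among them those of Cox5b, Sdha, Sdhd and Uqcrc1. CCGGAAG stood in 10 of the 52 (19.2%), against 8.86% of all windows, and AAGGTCA, a short site form of nuclear receptors, in 3 (5.77%), against 4.72%. No motif of the search contains another, though the end of CCGGAAG matches the start of AAGGTCA.

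Within litters the differences of the 59 other subunits centred near 0 each time. Their medians were -0.018, 0.0088 and 0.018 in litters 1, 2 and 3. Of the 59 genes 11 (18.6%) were higher in titled tooth germ in all 3 litters and 12 (20.3%) were lower in all 3, against 21.6% and 19.8% of all genes, and the rest were mixed. The spread over genes was wider in litter 3, with an SD of 0.18, than in litters 1 and 2, with 0.11 and 0.098, while over all genes the SDs were 0.22, 0.20 and 0.22 in litters 1, 2 and 3. Differences over 0.3 in size were found for 0, 0 and 6 of the 59 genes (10.2% in litter 3), against 7.88%, 7.17% and 9.60% of all genes, so the count in litter 3 was close to the share over all genes.

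Those 6 genes pointed in opposite directions. In litter 3 Cox6c differed by -0.49, Cox7a2 by -0.48, Ndufb5 by -0.46, Sdhd by -0.38 and Ndufb9 by -0.36, while Ndufa10 differed by 0.47. Ndufa10, an accessory subunit of complex I, read 11.82, 11.60 and 12.17 in titled tooth germ, against 11.78, 11.65 and 11.70 in titled oral tissue. Cox6c, an accessory subunit, read 12.33, 12.49 and 11.85 in titled tooth germ, against 12.11, 12.47 and 12.34 in titled oral tissue. In both, titled tooth germ library 3 stood apart from libraries 1 and 2. Over the 59 genes this library deviated by more than 0.2 from its group mean for 8 genes (13.6%), 5 below and 3 above, against 3.91% of all genes. For titled tooth germ libraries 1 and 2 the shares were 1.69% and 6.78%, against 1.49% and 2.76% of all genes. The shares are not matched for signal. Probe means lay above the upper quartile of all values for 49 of the 59 genes, against 7266 of 19057 genes.

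**Figure D3:**
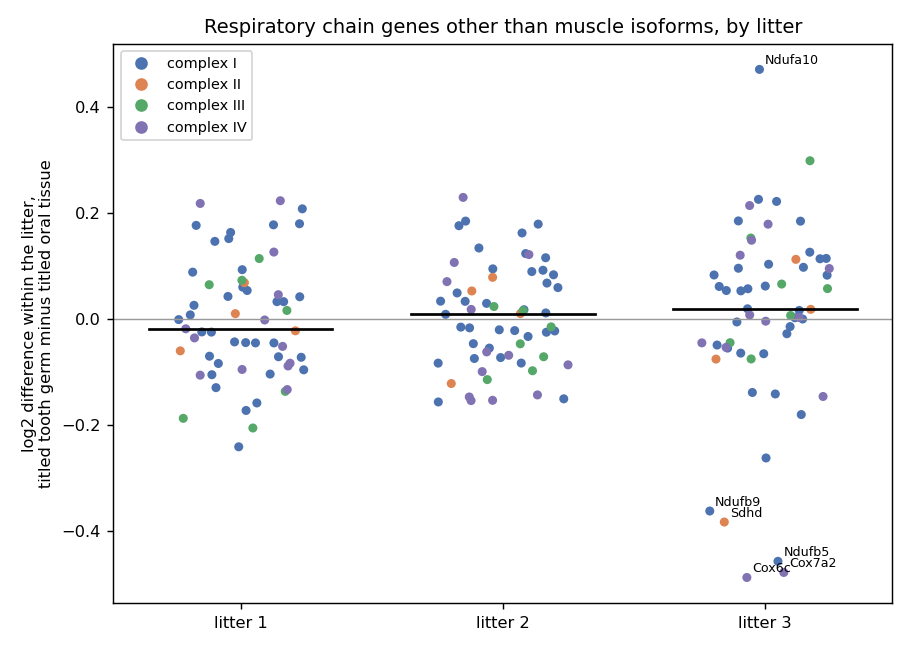
Log2 difference within each litter, titled tooth germ minus titled oral tissue, of the 59 respiratory chain genes other than muscle isoforms (points, coloured by complex), with the median of each litter as a bar. The medians lie at -0.018, 0.0088 and 0.018, and the 6 named genes beyond 0.3 are all in litter 3.

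For 22 of the 62 genes the array held further probes, 27 in all. Their differences ran from -0.19 to 0.22 with a median of 0.025, and 1 of 27 was called in the fit over all 34885 probes, which called 4.18% of them. That probe, for Ndufb8, an accessory subunit of complex I, read 7.62, 7.63 and 7.58 in titled tooth germ, against 7.35, 7.46 and 7.37 in titled oral tissue (difference 0.22, SE 0.053, adjusted p = 0.0382). The brighter Ndufb8 probe read 12.57, 12.74 and 12.77 in titled tooth germ, against 12.67, 12.72 and 12.71 in titled oral tissue, and differed by -0.0085. The 2 probes disagree, and the dimmer lay under the upper quartile of all values. Second probes of Ndufa5 (-0.19) and Ndufb6 (0.18) had an unadjusted p under 0.05 where the chosen probes both differed by 0.018. The sign was opposite to that of the chosen probe for 13 of the 27.

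The subunits encoded in mitochondrial DNA, none of which is among the 62, leaned to one side. All 8 measured transcripts had a lower mean in titled tooth germ, with a median difference of -0.19, and none was called. ND6, with a difference of -0.045, was read below the median of all values (mean 6.79) and cannot be judged. An unadjusted p under 0.05 was found for 3 of the 8 (37.5%, limma), against 17.1% of all genes. With litter as a fixed block 3 were called lower, ATP6, a subunit of ATP synthase (adjusted p = 0.0441), COX2, a catalytic subunit of complex IV (0.0473), and ND4L, a membrane subunit of complex I (0.0264). All 3 calls were lost with litter as a random effect at an estimated correlation, with an adjusted p of 0.0908 for ATP6, 0.160 for COX2 and 0.0603 for ND4L. The mean signal over the 8 was 11.03, 11.19 and 10.91 in titled tooth germ, against 11.23, 11.29 and 11.37 in titled oral tissue, so the groups did not overlap for this mean. Taken singly, the groups did not overlap for 1 of the 8, ATP6 (12.5%), against 23.1% of all genes.

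Titled tooth germ library 3 was the lowest library for ATP6, COX2 and ND4L, and their values changed with the libraries used. ATP6 read 12.47, 12.58 and 11.84 in titled tooth germ, against 12.71, 12.71 and 12.76 in titled oral tissue, a log2 difference of -0.43 that became -0.20 without that library. COX2 read 11.85, 12.38 and 11.28 in titled tooth germ, against 12.17, 12.47 and 12.33 in titled oral tissue, and its difference of -0.49 became -0.21. COX2 was called without titled tooth germ library 2 (-0.76, adjusted p = 0.0130) and without litter 2 (-0.69, 0.0381). ND4L differed by -0.46, by -0.31 without titled tooth germ library 3, and was called without titled tooth germ library 2 (-0.60, adjusted p = 0.0315) and without titled oral tissue library 1 (-0.59, 0.0312). CYTB, the mitochondrial subunit of complex III, read 14.30, 14.27 and 14.57 in titled tooth germ, against 14.47, 14.27 and 14.58 in titled oral tissue, level within the spread. ND1, ND4 and ND5, membrane subunits of complex I, differed by -0.20, -0.18 and -0.16. The probes of ND4L and ND5 read far lower than that of ND4, with means of 7.88 and 7.74, against 14.36. These transcripts are cut from shared precursors, so they are not independent of each other. The part of muscle in this list was not tested.

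**Figure D4:**
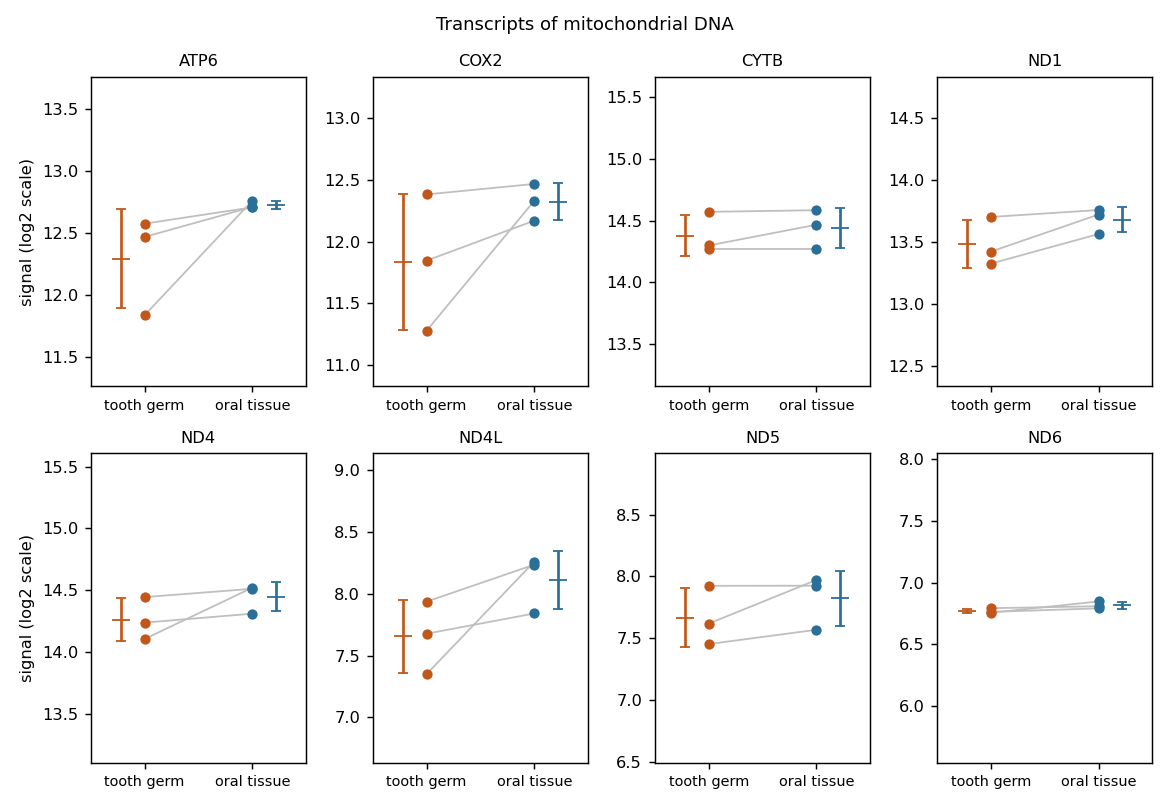
Signal of the 8 measured transcripts of mitochondrial DNA on the deposited log2 scale in each library (points), with group mean and SD at the side (n = 3 per tissue) and lines joining libraries of a litter; every panel spans 2.5 log2 units. Means are lower in titled tooth germ for all 8, and the lowest ATP6, COX2 and ND4L points are titled tooth germ library 3. The signal of ND6 lies below the median of all values.

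Few other nuclear genes of mitochondria on the lists were called. Of 17 genes of ATP synthase, the enzyme that makes ATP from the proton gradient, none was called (limma, 1 with an unadjusted p under 0.05) and the median log2 difference was -0.035. The lowest was Atp5j2, which read 13.26, 13.21 and 13.29 in titled tooth germ, against 13.40, 13.46 and 13.47 in titled oral tissue (difference -0.19, SE 0.058, adjusted p = 0.0873). Of 38 assembly factors of the complexes 1 was called (2.63%, against 5.81% of all genes), with a median of 0.0032. Ndufaf4, an assembly factor of complex I, was higher in titled tooth germ at 10.21, 10.35 and 10.19, against 9.82, 9.93 and 9.99 in titled oral tissue (difference 0.34, SE 0.084, adjusted p = 0.0355). The call was lost without litter 1, 2 or 3 (adjusted p = 0.263, 0.203 and 0.0655) and without any single library other than titled tooth germ library 3.

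Of 12 genes of the citric acid cycle, which feeds the chain with NADH and succinate, none was called (limma, 3 of 12 with an unadjusted p under 0.05, against 17.1% of all genes), with a median of 0.018. Dlst, a subunit of the oxoglutarate dehydrogenase complex, differed by 0.27 and was called with litter as a fixed block (adjusted p = 0.0368) but not as a random effect (adjusted p = 0.0752). Over the mean of its probes Dlst differed by 0.055 (adjusted p = 0.820). Of 17 regulators of mitochondrial number and transcription 1 was called (5.88%), near the 5.81% of all genes. Esrrb, an orphan nuclear receptor of the oestrogen-related family, read 7.46, 7.32 and 7.50 in titled tooth germ, against 8.06, 8.26 and 8.20 in titled oral tissue (difference -0.75, SE 0.077, adjusted p = 0.00012). Over the mean of its probes Esrrb differed by -0.36 (adjusted p = 0.00272). Its relatives Esrra and Esrrg, which activate genes of oxidative metabolism, differed by -0.052 and -0.10, and Ppargc1a, their coactivator, by 0.048, and these were not called. The probes of Esrrg and Ppargc1a were dim, with means of 7.14 and 7.15, so a change of these transcripts could be missed. Nrf1 differed by -0.048.

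Of 18 genes of energy supply in muscle 4 were lower in titled tooth germ (22.2%, against 3.42% of all genes) and the rest were not called, with a median of -0.14. With litter as a fixed block, a fit that called 8.88% of all genes, 2 more were called lower. These were Pygm, a glycogen phosphorylase (adjusted p = 0.0238), and Eno3, the muscle enolase (0.00261). With litter as a random effect Pygm was called (adjusted p = 0.0308) and the call of Eno3 was lost (adjusted p = 0.0815). Pgam2, the muscle form of a glycolytic mutase, averaged 8.06 ± 0.18 in titled tooth germ, against 9.40 ± 0.35 in titled oral tissue (mean ± SD, n = 3 per tissue), with no overlap (difference -1.34, SE 0.15, adjusted p = 0.000236). Mb, the oxygen carrier of muscle, differed by -0.92 (adjusted p = 9.32e-05), and by -0.59 over the mean of its probes (0.00332). The purine enzymes Ampd1 and Ak1 both differed by -0.43 (adjusted p = 0.00425 and 0.00186). Ckmt2, the mitochondrial creatine kinase of muscle, had a mean of 6.94 in titled tooth germ, against 6.95 in titled oral tissue, below the median of all values.

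**Figure D5:**
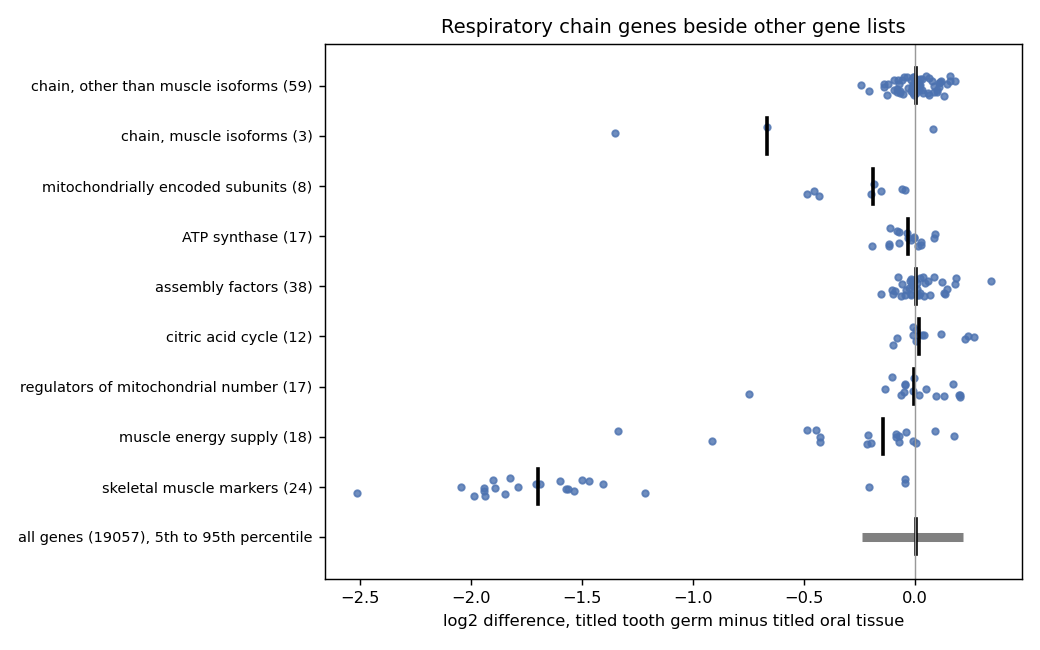
Log2 difference, titled tooth germ minus titled oral tissue, of each gene (points) of the respiratory chain and of 7 other lists, with the median of each list as a bar; the grey bar spans the 5th to 95th percentile of all 19057 genes (-0.24 to 0.21). The 59 other chain genes lie close around 0, and the skeletal muscle markers lie furthest left with a median of -1.70.

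Lists of markers of other cell types also held called genes, to be read against the 3.42% of all genes called lower and 2.39% called higher. Of 11 neuron markers 4 were lower in titled tooth germ, of 9 leukocyte and macrophage markers 6, of 8 endothelium markers 1 and of 10 erythroid markers 1, and none of these was higher. The single calls for endothelium and erythroid cells carry no reading for those lists. With litter as a fixed block the counts were 7 of 11 for neurons and 2 of 8 for endothelium, and as a random effect 7 and 1. Those fits called 8.88% and 7.5% of all genes. Of 13 surface epithelium markers 6 were higher and 1 lower. The mean signal over the epithelium list was 9.97, 10.03 and 10.11 in titled tooth germ, against 9.50, 9.66 and 9.64 in titled oral tissue. Over the neuron list it ran from 7.33 to 7.41 in titled tooth germ, against 7.71 to 8.34 in titled oral tissue. The part of these cell types in the levels of the respiratory chain genes was not tested.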

How the data were processed

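Total RNA of 6 pooled libraries was read on Illumina bead arrays. The deposited values are on a log2 scale and came from lumi 2.8.0, per the submitters' processing notes. The background correction and the exact transformation are not given in the sources used here, so changes of dim probes may be understated; array number and signal over background limit precision. All 6 columns share their sorted values to within 0.000827, so no further normalization was done.

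Of 45281 probes, 34885 have 1 gene symbol in the platform annotation, 18 have several and 10378 have none; 34807 matched RefSeq by Entrez ID. The probe with the highest mean stood for each of 19057 genes. Groups were set by sample title. limma 3.58.1 (R 4.3.3; lmFit, eBayes with a variance trend, checked on simulated data) was fitted over all genes with no block and Benjamini-Hochberg adjustment, with calls made where the adjusted p was under 0.05. The simulated data held no litter effect, and the pass rule covered only changes larger than any of the chain genes other than muscle isoforms. The check therefore does not bear on small differences. The ratios of isoforms were tested with an exact permutation test (scipy 1.17.1). The p-values measure only the spread between these pools.

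Libraries of 1 number share a litter, per the labels. Their deviations from the group means correlated at 0.413, 0.233 and 0.266 over 9528 genes, against -0.267 to -0.0724 between litters. Deviations of 3 libraries from their own mean sum to 0, so the values between litters are not separate evidence of pairing. Litter as a block was the paired alternative.

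The members and gene lists were chosen with earlier results of these data known. Named by rule were the muscle isoforms and other paired isoforms, every called gene, the highest, lowest, brightest and dimmest gene of each complex, the Sdh genes, up to 3 called genes of each further list in each direction, and genes whose probes disagree. Not every gene with probes of opposite sign was named. The other genes named, among them Ndufs7, Ndufs8, Ndufv1, Ak1, Dlst, Atp5j2 and the genes singled out within litters, were named after their values were seen. Cox8a and Ndufa4l2 were not analysed here. Promoter windows came from RefSeq (GRCm38.p6), with 50 of the 62 genes matched.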

Additional observations from a re-analysis of the deposited data

How the results depend on the processing

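Over 20 alternative settings, 59 of the 62 respiratory chain genes were never called. The exceptions were Cox6a2, Cox8b and, with array weights alone, Cox8c (-0.10). Not every setting could readily add a call. Groups by source name left each p unchanged, and the 0.01 threshold could only lose calls. Fits that left out libraries or litters called 549 to 1025 of all genes, against 1107. With litter as a block, fixed or random, 2 of the 62 genes were called, as without it. The number called was 1, Cox6a2, without a variance trend, with robust shrinkage and at an adjusted p under 0.01, and 1 to 2 when libraries or litters were left out. In those 3 settings Cox8b kept its difference of -0.67 with an adjusted p of 0.0761, 0.127 and 0.0119; it ran from -0.83 to -0.49 when libraries or litters were left out, and Cox6a2 from -1.54 to -1.24. The median of the 59 other genes ran from -0.011 to 0.033 in the same way. Of the 110 genes on the 6 further mitochondrial and muscle lists 6 were called, against 1107 of all 19057 genes. With litter as a fixed block 12 were called, against 1693 of 19057, and with litter as a random effect 7, against 1430. Without a variance trend 10 were called, against 1042 of 19057. With groups taken from the source names every sign turned: Cox6a2 1.35, Cox8b 0.67, Pgam2 1.34, Mb 0.92, Esrrb 0.75, Ndufaf4 -0.34, Ampd1 and Ak1 0.43 each, Msx1 -1.47, Shh -0.78, Myod1 1.47, Myog 1.54 and Acta1 1.94. A change of sign of a gene that was not called was counted as no change. With 3 libraries per tissue and dim probes for some genes, small changes are not resolved. The causes of these changes were not tested.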
